A study of Homo sapiens with 6 samples.

Results

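Clustered protocadherins are cell surface proteins of the cadherin superfamily, encoded in 3 neighbouring gene clusters, alpha, beta and gamma, on chromosome 5. The members described here are the protein-coding genes whose symbol begins with PCDHA, PCDHB or PCDHG, which came to 51 of the 57820 genes in the count table: 15 alpha, 15 beta and 21 gamma genes. PCDHB16 and PCDHGB5, which are in the GENCODE 29 annotation used for names, were not analysed here. RNA was sequenced in bulk from motor neurons made from H9, an established human embryonic stem cell line of wild-type genotype, with retinoic acid (RA) and SAG, an agonist of Hedgehog signalling, in the medium. Of the 6 libraries, 3 came from cells under normal gravity (NG) and 3 from cells under simulated microgravity (SMG), for which a 2D clinostat turned the cultures about an axis. The groups thus share cell line, genotype and differentiation. All libraries come from 1 cell line, and a clinostat changes the direction in which gravity acts but does not remove it. Whether the libraries of a group are separate cultures is not stated in the labels, and the p-values measure only how far these libraries spread, which may be technical.

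Each clustered protocadherin is made from its own promoter, and a neuron uses only some of these promoters, chosen largely at random, so that neighbouring cells carry different sets of proteins on their surface. The proteins bind to copies of themselves on another membrane, and this recognition is known for self-avoidance, in which the branches of 1 neuron keep apart from each other, and for the spacing and survival of neurons. Promoter choice is known to involve CTCF and cohesin, which loop an enhancer to the chosen promoter, and DNA methylation, which keeps other promoters silent. The C-type members, PCDHAC1, PCDHAC2, PCDHGC3, PCDHGC4 and PCDHGC5, are known for use that is less random. In the alpha and gamma clusters a large variable exon, which encodes the outer part of the protein, the membrane span and some of the inside, is spliced to exons that all members of the cluster share. Beta genes have no such shared exons.

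The promoter sequences are shown because each member has its own promoter, and because many members moved in 1 direction. RefSeq promoters on GRCh38.p14, from 250 bases before to 50 bases after the start, were found for 45 of the 51 members, and for none of PCDHA3, PCDHA13, PCDHB6, PCDHB11, PCDHGA12 and PCDHGC5. Protocadherin promoters are known for a conserved element with the letters CGCT at its core. These letters stood on the gene's strand in 44 of the 45, all but PCDHA9. They are common: CGCT stood on either strand of 24584 of 35116 RefSeq promoters of that length (70.0%). The 9-base run with CGCT that was shared by more members of a cluster than any other such run was rarer among all promoters. In alpha promoters this run was GATGTCGCT, on either strand of 9 of 13 and of 0.105% of all promoters. In beta promoters it was GGTGGCGCT, in 12 of 13 and in 0.501% of all. In gamma promoters it was GCGCCGCTG, in 9 of 19 and in 1.28% of all. The runs were chosen as the most shared after the sequences were seen, all promoters include the members' own, and a match is a description of letters, not a measured binding site.

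The windows below are 40 bases long, 5′ to 3′ on the plus strand of chromosome 5 on GRCh38.p14, with CGCT in capitals. The first set holds alpha members: PCDHA1, PCDHA2 and PCDHA4, which rose, and PCDHA6 and PCDHA12, the alpha genes with the highest levels per length, which did not pass the test.
PCDHA1, chr5:140786080-140786119: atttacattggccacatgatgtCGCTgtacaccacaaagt
PCDHA2, chr5:140794775-140794814: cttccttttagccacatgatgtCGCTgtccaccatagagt
PCDHA4, chr5:140806973-140807012: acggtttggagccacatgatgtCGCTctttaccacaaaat
PCDHA6, chr5:140827891-140827930: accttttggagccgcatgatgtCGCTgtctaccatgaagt
PCDHA12, chr5:140875238-140875277: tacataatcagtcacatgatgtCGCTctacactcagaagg
All 5 carried GATGTCGCT, so the alpha run was present both in members that rose and in members that did not pass. Over the alpha genes with the run, its CGCT began 38 to 81 bases before the RefSeq start.

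The beta set shows PCDHB2 and PCDHB9, which rose, and PCDHB15, the third of the beta genes by level per length, which did not pass.
PCDHB2, chr5:141094538-141094577: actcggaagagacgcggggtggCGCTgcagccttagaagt
PCDHB9, chr5:141187068-141187107: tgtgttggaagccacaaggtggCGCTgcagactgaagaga
PCDHB15, chr5:141245308-141245347: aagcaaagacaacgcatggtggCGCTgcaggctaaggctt
All 3 carried GGTGGCGCT. Of the 11 beta genes with a promoter that were not called higher, 10 carried it. The other was PCDHB1, which is nearly silent in these cells and was not tested.

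The gamma set shows the gamma genes that rose.
PCDHGA3, chr5:141343761-141343800: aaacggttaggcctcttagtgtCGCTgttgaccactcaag
PCDHGB1, chr5:141350019-141350058: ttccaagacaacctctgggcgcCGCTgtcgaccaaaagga
PCDHGB4, chr5:141387611-141387650: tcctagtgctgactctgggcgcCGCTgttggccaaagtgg
PCDHGB6, chr5:141407918-141407957: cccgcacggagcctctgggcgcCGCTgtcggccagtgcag
PCDHGA11, chr5:141420966-141421005: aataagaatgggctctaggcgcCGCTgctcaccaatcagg
PCDHGC4, chr5:141484946-141484985: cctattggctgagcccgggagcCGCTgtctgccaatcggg
GCGCCGCTG was in 4 of these 6, and PCDHGA3 and PCDHGC4 were without it. Of the 13 gamma genes with a promoter that did not pass, 5 carried it: PCDHGA1, PCDHGA7, PCDHGA8, PCDHGA9 and PCDHGA10. PCDHGB6 and PCDHGB7, the most abundant gamma genes by CPM, share a longer run with a CGCT that lies outside GCGCCGCTG. It is 38 bases long and lies at chr5:141407944-141407981 before PCDHGB6 and at chr5:141417603-141417640 before PCDHGB7.
PCDHGB6 and PCDHGB7, shared run: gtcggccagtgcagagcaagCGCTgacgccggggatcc
PCDHGB6 rose and PCDHGB7 did not pass the test, with this run the same in both. Their promoters differ elsewhere: PCDHGB6 carried GCGCCGCTG and PCDHGB7 did not.

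**Figure D1:**
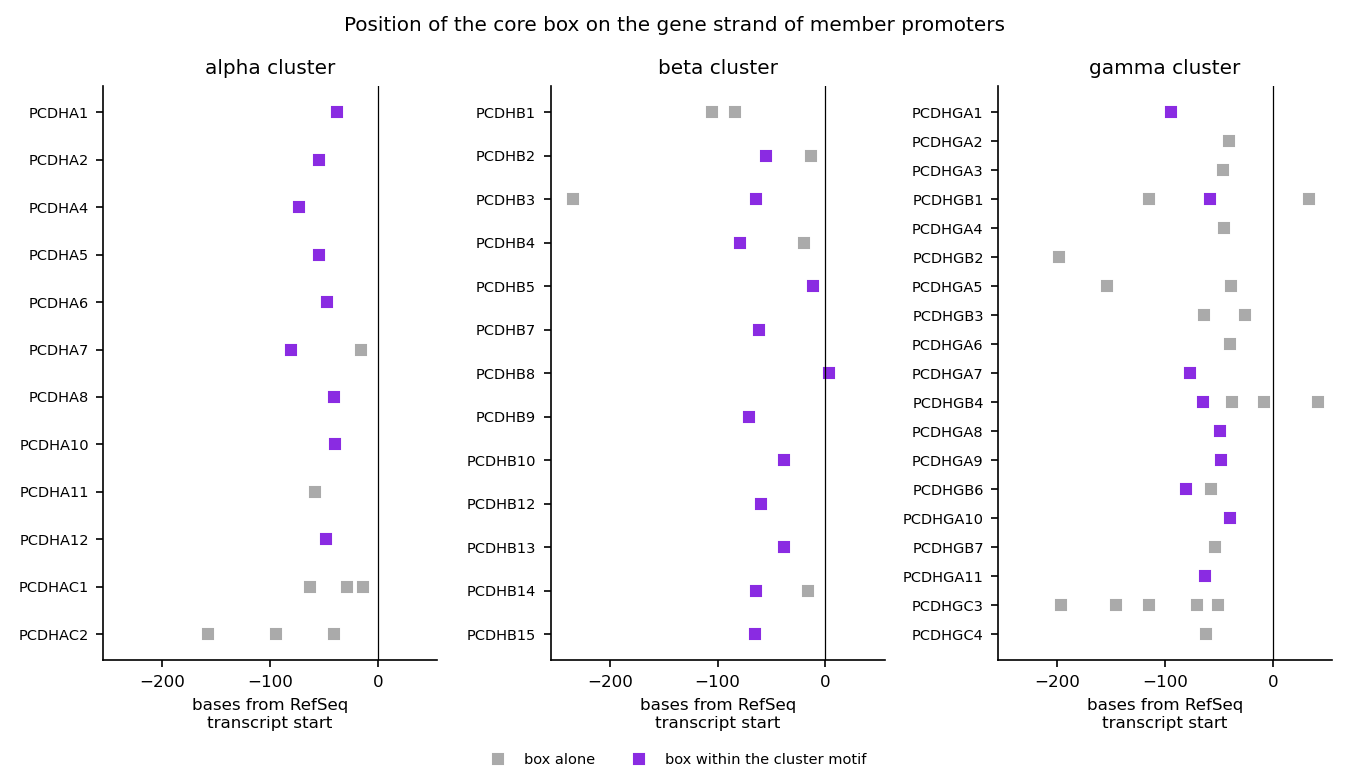
Position of each CGCT, the core box, on the gene's strand (x axis, bases from the RefSeq start) in the promoters of the 44 members that hold it, 1 line per gene, with a CGCT inside the cluster's 9-base run marked apart from the others. Most marked matches lie between 38 and 95 bases before the start, in genes that rose and in genes that did not.

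Levels are given as CPM, counts scaled to a common library size, with TMM factors, which allow for differences in composition between libraries. Totals ran from 16329907 to 22685870 counts per library. Of the 51 members, 49 had enough counts to be tested. PCDHB1 had 1, 1 and 2 counts in NG and 0, 2 and 0 in SMG, each under the 3 counts that a count of 0 allows, so it cannot be told from silence at this depth. PCDHGA12, a gamma gene of the A group, stood at 0.566, 0.616 and 0.244 CPM in NG and 0.236, 0.314 and 0.219 CPM in SMG, and its groups overlapped.

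Levels differed far more between members than between the gravity groups. Compared as CPM per kilobase of exon bases not shared with another gene, PCDHB2 led the beta cluster with 21.5 in NG and 24.9 in SMG. PCDHB5 followed with 20.6 in NG and 22.2 in SMG, and PCDHB15 was next, much lower, with 6.42 in NG and 6.06 in SMG. PCDHB2 and PCDHB5 thus dominate the 15 beta genes analysed here, with 30.3% and 24.1% of their summed CPM in NG. PCDHB16 is not in that sum. In the gamma cluster PCDHGB6 led with 13.5 CPM per kilobase in NG and 16.0 in SMG. PCDHGB7, at 10.4 in NG and 10.9 in SMG, and PCDHGB4, at 9.65 in NG and 11.8 in SMG, came next. Their order is not fixed: PCDHGB4 had the higher value per unshared kilobase in SMG libraries 1 and 2 alone, and per kilobase of all exon bases PCDHGB7 ranked above it. All 3 leading gamma genes belong to the B group, and PCDHGB6 alone made up 34.1% of the summed gamma CPM in NG and 34.8% in SMG. In the alpha cluster PCDHA6 led with 9.0 CPM per kilobase in NG and 9.28 in SMG, followed by PCDHA12 with 6.20 and 6.99 and by PCDHA2 with 3.93 and 4.77. PCDHA6 was the only one of the 3 cluster leaders whose share of its cluster's CPM was lower in SMG, 24.2% against 26.6% in NG, a difference given without a test.

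The annotation and the counting limit how far single members can be told apart. In GENCODE 29 the median alpha gene shares 3264 exon bases with other genes (49.4% of its exon bases) and the median gamma gene 2181 (43.8%), against 169 (3.5%) for the median beta gene. The sources used here do not say how the authors' counting treated reads in the shared exons or reads that map to several places. The least counted alpha gene had 18 to 29 counts per library and the least counted gamma gene 4 to 7, and any block of reads credited to every gene of a cluster can be no larger than that. PCDHGA8 lies over PCDHGB4 in the annotation: all 50-base windows of its first 2000 transcript bases also occur in another member, so reads of these genes could be split by the counting. The same share was 29.8% for PCDHB9, 17.2% for PCDHB2, 39.2% for PCDHA6 and 11.9% for PCDHGB6. Nor do they say whether strand was used.

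**Figure D2:**
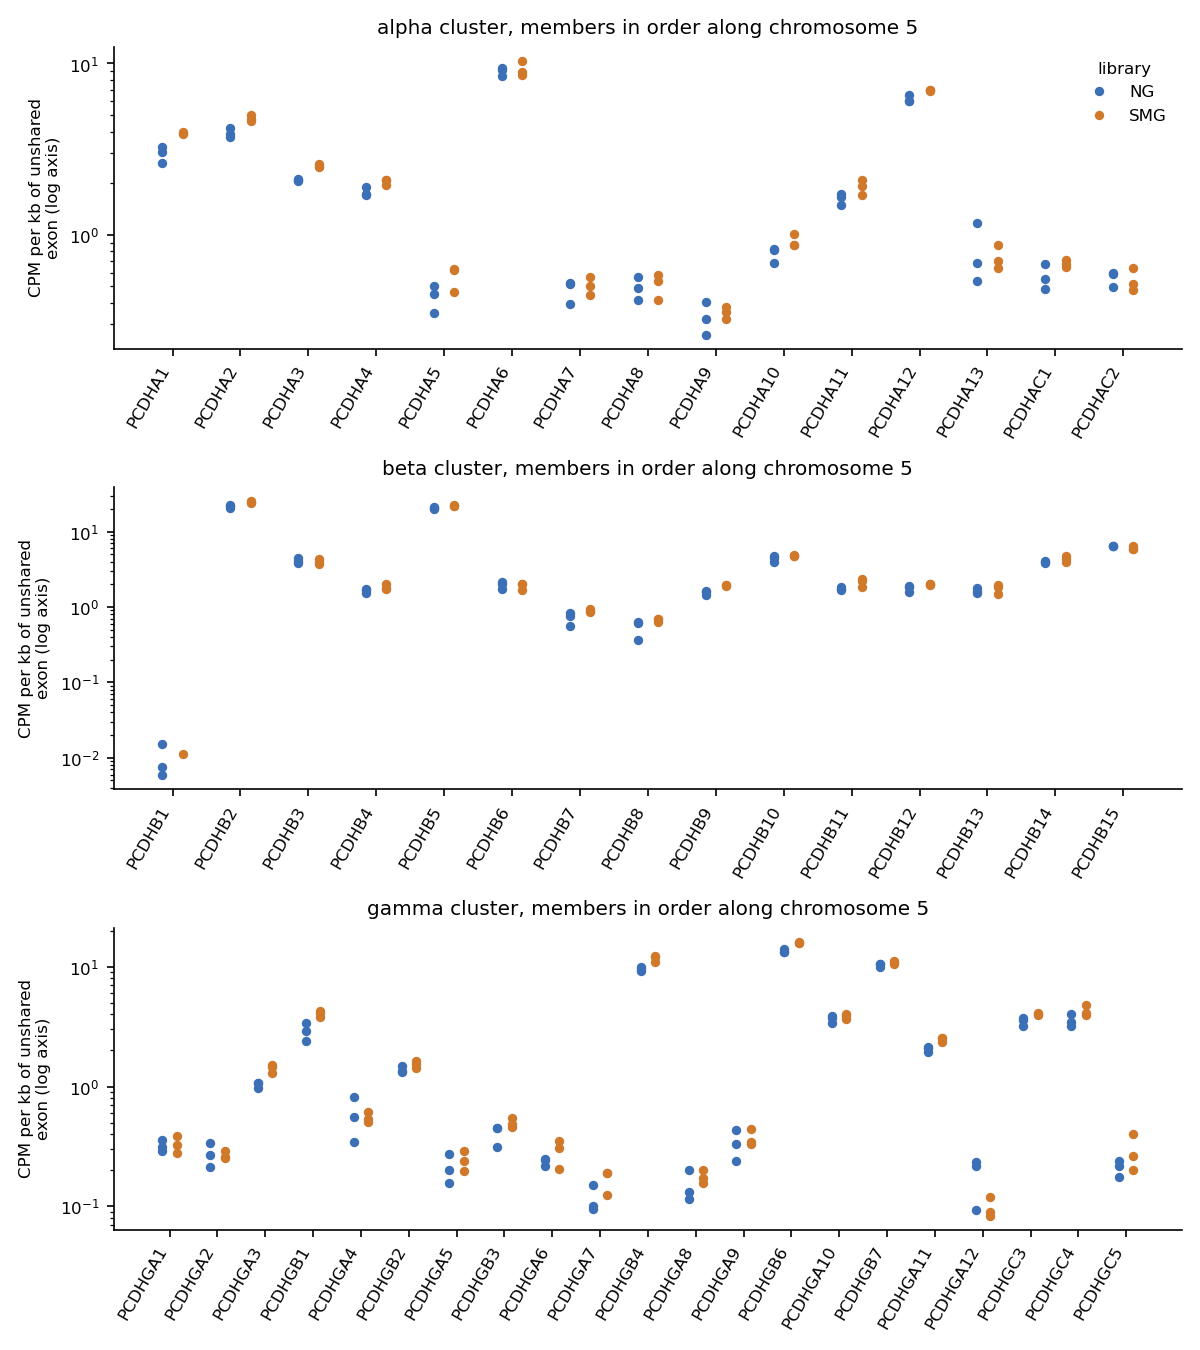
CPM per kilobase of unshared exon (y axis, log scale, a different range in each panel) of each member in the 3 NG and 3 SMG libraries, 1 point per library, with the members in order along each cluster. PCDHB2, PCDHB5 and PCDHGB6 stand highest, and PCDHB1 lowest, with its SMG counts of 0 not drawn on this axis.

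Each cluster's summed level was higher in SMG, by a small amount. The alpha genes summed to 116, 110 and 106 CPM in the NG libraries and to 125, 121 and 130 CPM in the SMG libraries. Their mean was 111 ± 5.24 CPM (SD, n = 3) in NG and 125 ± 4.75 CPM (SD, n = 3) in SMG, 1.13-fold higher. The lowest SMG sum lay above the highest NG sum. The beta genes summed to 252, 252 and 243 CPM in NG and to 274, 271 and 273 CPM in SMG, from 249 ± 5.45 to 273 ± 1.57 CPM (SD, n = 3 each), a ratio of 0.13 on the log2 scale. The gamma genes summed to 184, 184 and 180 CPM in NG and to 214, 212 and 208 CPM in SMG, from 183 ± 2.30 to 212 ± 2.91 CPM (SD, n = 3 each), 1.16-fold higher. In none of the 3 clusters did the sums of the groups overlap, and the 6 gamma genes of the B group carried most of the gamma sum, 125 ± 1.89 CPM in NG and 147 ± 3.29 CPM in SMG (SD, n = 3 each). These sums are descriptions without a test, and their largest genes weigh most in them. In bulk RNA, more cells that use a promoter and more RNA per cell cannot be told apart.

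**Figure D3:**
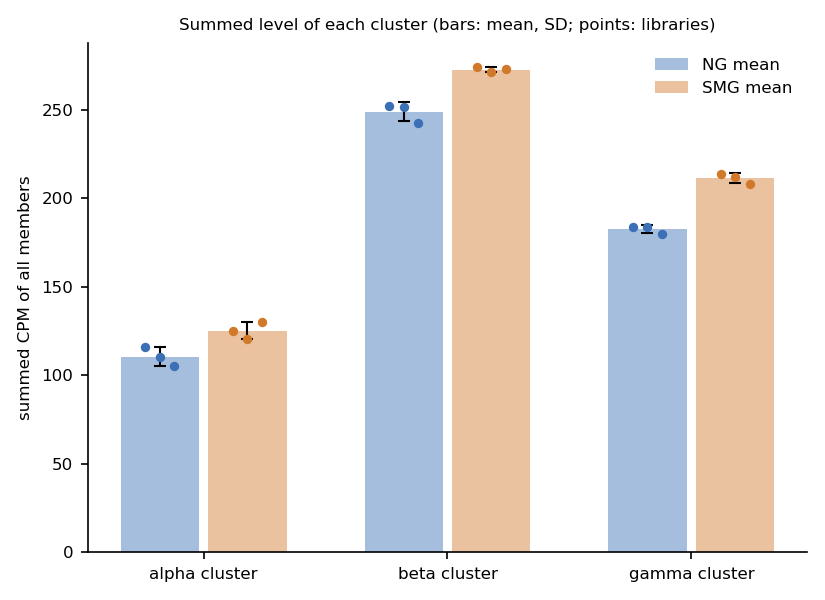
Summed CPM (y axis, from 0) of the alpha, beta and gamma members in each library, with group means and SD (n = 3). The SMG sums lie above the NG sums in every cluster, and the beta cluster is the highest of the 3 in both groups.

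Gene by gene, 13 of the 49 tested members rose in SMG (26.5%) and 0 fell, by edgeR's quasi-likelihood test at an adjusted p under 0.05 over all 17803 genes tested. Over all genes tested, 17.3% rose and 18.5% fell, so with this test the members' rises are above that background and their falls below it, a comparison that was not tested because members of a cluster share sequence and control regions. At an unadjusted p under 0.05, 18 members passed. The median log2 fold change of the members was 0.19, against -0.00 for all genes tested, and 42 of the 49 (85.7%) lay above 0, against 49.9% of all genes. The groups did not overlap in 20 members, all of them higher in SMG, where 22.6% of all genes were higher without overlap and 23.6% lower. Of these 20, the 9 that did not pass were PCDHA10, PCDHA12, PCDHB4, PCDHB5, PCDHB7, PCDHB8, PCDHB12, PCDHGB3 and PCDHGC3, named after their values were seen. The 7 members below 0 were PCDHA13, PCDHAC2, PCDHB3, PCDHB6, PCDHB15, PCDHGA2 and PCDHGA4, none of which passed. DESeq2, a second count test, gave 40 members an adjusted p and called 5 of them higher (12.5%) and 0 lower, against 15.5% and 16.2% of all genes with an adjusted p. The members' share of rises was thus above the background with edgeR and below it with DESeq2. Leaving out any 1 library lowered the edgeR count, to between 8 and 10, with 8 without NG library 2 or without SMG library 3. A fit with fewer libraries can also call fewer genes, and its part in this drop was not tested. The 5 members called under all 16 alternatives were PCDHA1, PCDHB2, PCDHGB1, PCDHGB4 and PCDHGB6.

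PCDHGB6, the leading gamma isoform, was at 60.9, 61.3 and 64.2 CPM in NG and 74.8, 73.1 and 72.7 CPM in SMG. The 3 SMG libraries lay above all NG libraries. Its log2 fold change was 0.24 ± 0.04 (SE, adjusted p = 6e-05, edgeR's quasi-likelihood test). PCDHGB4, a B group gene nearer the start of the cluster, was at 22.8, 24.7 and 23.6 CPM in NG and 30.2, 29.9 and 27.0 CPM in SMG, again without overlap. It rose by 0.29 ± 0.06 on the log2 scale (adjusted p = 0.000421, edgeR). PCDHGB1, the first of the B group along the chromosome, was less abundant, at 5.89, 6.90 and 4.94 CPM in NG and 8.69, 8.40 and 7.80 CPM in SMG. It had the largest log2 fold change of the members that rose, 0.49 ± 0.11 (adjusted p = 0.00109, edgeR), and no NG library reached the SMG levels.

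PCDHGB7 differed from these B group genes in what the test found. It was at 29.7, 29.4 and 28.0 CPM in NG and 31.0, 29.6 and 30.7 CPM in SMG, so the groups overlapped, and its log2 fold change was 0.07 ± 0.06 (adjusted p = 0.365, edgeR) and turned to -0.03 with the length and GC trend removed. The difference between PCDHGB7 and PCDHGB6 itself was not tested. Of the remaining B group genes, PCDHGB2 and PCDHGB3 did not pass either, with log2 fold changes of 0.15 and 0.32. In the A group of the gamma cluster 2 of 11 tested genes rose (18.2%), near the 17.3% of all genes tested and so no result about the group. PCDHGA3 was at 2.88, 2.89 and 2.62 CPM in NG and 4.06, 3.95 and 3.5 CPM in SMG, a log2 fold change of 0.45 ± 0.14 (adjusted p = 0.0149, edgeR). PCDHGA11 was at 7.64, 7.02 and 7.80 CPM in NG and 8.50, 9.30 and 9.15 CPM in SMG, a log2 fold change of 0.26 ± 0.10 (adjusted p = 0.0359, edgeR). Neither overlapped between groups, but both missed the threshold with DESeq2 and with the trend on transcript length and GC content removed. PCDHGA3 also lost the call without SMG library 1 or 2. PCDHGA11 also lost it with no filter, without NG library 1 or 2, and without SMG library 2 or 3. The other 9 A group genes, most of them under 2 CPM, did not pass, and PCDHGA10, the most abundant of them, was at 17.2, 16.8 and 15.1 CPM in NG and 17.3, 18.1 and 16.5 CPM in SMG. Over the gamma cluster 6 of 20 tested genes rose (30.0%, against 17.3% of all genes tested), with a median log2 fold change of 0.23. With the length and GC trend removed this came to 3 genes and a median of 0.17, and without SMG library 2 also to 3 genes.

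In the beta cluster 3 of 14 tested genes rose (21.4%, against 17.3% of all genes tested), and the median log2 fold change was 0.14. PCDHB2, the most abundant by CPM of the 51 members analysed here, was at 78.1, 75.6 and 72.4 CPM in NG and 89.0, 87.7 and 84.9 CPM in SMG. Every SMG library lay above every NG library, with a log2 fold change of 0.21 ± 0.04 (adjusted p = 0.000244, edgeR). PCDHB5, close to PCDHB2 in level, was at 60.7, 61.0 and 58.0 CPM in NG and 64.6, 66.1 and 63.0 CPM in SMG. Its groups did not overlap, but its log2 fold change of 0.11 ± 0.04 missed the threshold (adjusted p = 0.0597, edgeR) and passed it under 4 of the alternatives. PCDHB9 was at 5.85, 6.65 and 6.52 CPM in NG and 7.88, 7.77 and 7.88 CPM in SMG, a log2 fold change of 0.31 ± 0.10 (adjusted p = 0.0171, edgeR), lost without NG library 1 and with DESeq2. PCDHB11 was at 7.59, 6.77 and 6.95 CPM in NG and 9.44, 7.54 and 9.11 CPM in SMG. It passed with a log2 fold change of 0.28 ± 0.11 (adjusted p = 0.0352, edgeR), although SMG library 2 lay within the NG range, and it lost the call without NG library 2 or 3, without SMG library 1 or 3, and with DESeq2. PCDHB15 was the most abundant member with a negative value, at 23.3, 23.1 and 23.1 CPM in NG and 21.2, 21.2 and 23.2 CPM in SMG, a log2 fold change of -0.08 ± 0.06 (adjusted p = 0.331, edgeR). Its SMG libraries 1 and 2 lay below NG and SMG library 3 within it.

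In the alpha cluster 4 of 15 genes rose (26.7%, against 17.3% of all genes tested). All 4 lie next to each other at the start of the cluster, PCDHA1 to PCDHA4. That position was noticed after the values were seen, and it holds for the calls, not for the fold changes. PCDHA5, the next gene, had the largest alpha log2 fold change, 0.42 ± 0.20. It was low, at a mean of 1.59 CPM in NG and 2.10 CPM in SMG, and did not pass (adjusted p = 0.108, edgeR). PCDHA10, PCDHA11 and PCDHAC1 (0.24, 0.22 and 0.26) also lay above PCDHA4 without passing. The other alpha genes that did not pass lay below it. PCDHA1 was at 7.54, 7.08 and 6.16 CPM in NG and 9.30, 9.21 and 9.02 CPM in SMG, a log2 fold change of 0.40 ± 0.10 (adjusted p = 0.00259, edgeR). PCDHA2 was at 11.1, 9.73 and 10.1 CPM in NG and 13.1, 12.4 and 12.1 CPM in SMG, a log2 fold change of 0.27 ± 0.09 (adjusted p = 0.015, edgeR). Neither gene overlapped between groups. PCDHA3 was at 7.54, 7.64 and 7.44 CPM in NG and 9.02, 9.30 and 9.02 CPM in SMG, with a log2 fold change of 0.27 (adjusted p = 0.0244, edgeR). PCDHA4 was at 20.1, 18.1 and 18.2 CPM in NG and 22, 20.7 and 22 CPM in SMG, with a log2 fold change of 0.19 ± 0.07 (adjusted p = 0.0289, edgeR). These groups did not overlap either, but DESeq2 called PCDHA1 alone of the 4, and without NG library 2, SMG library 1 or SMG library 3 the alpha count was 2. PCDHA6, the leading alpha isoform, was at 30.7, 30.0 and 27.5 CPM in NG and 29.2, 27.8 and 33.9 CPM in SMG. Its groups overlapped, with a log2 fold change of 0.04 ± 0.07 (adjusted p = 0.666, edgeR) that turned to -0.05 without SMG library 3. PCDHA12 was at 12.1, 13.1 and 12.2 CPM in NG and 14.1, 14 and 14.1 CPM in SMG. Its SMG libraries all lay above NG, but it missed the threshold (adjusted p = 0.0896, edgeR).

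**Figure D4:**
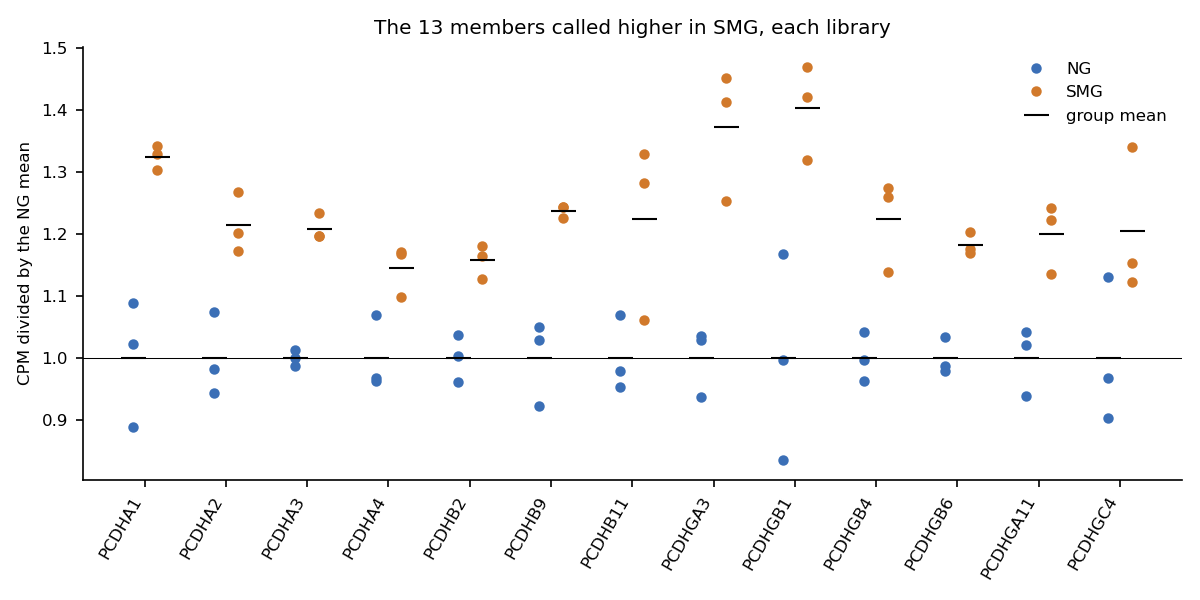
Level of the 13 members that rose, in each library, relative to the gene's NG mean (y axis, ratio), 1 column per gene. SMG points lie above the NG points in all of them except PCDHB11 and PCDHGC4, whose groups overlap.

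Of the 5 C-type members, 1 rose (20%, against 17.3% of all genes tested). PCDHGC4, the gamma member known to be needed for the survival of neurons, was at 11.2, 9.61 and 8.96 CPM in NG and 11.1, 11.5 and 13.3 CPM in SMG. Its log2 fold change was 0.26 ± 0.10 (adjusted p = 0.0374, edgeR), with NG library 1 inside the SMG range. It was not called with DESeq2, without robust estimation, with the trend removed, or without NG library 2 or 3 or SMG library 2 or 3. PCDHGC3 was at 12.1, 11.7 and 10.5 CPM in NG and 13.1, 13.2 and 12.8 CPM in SMG, without overlap, and missed the threshold with a log2 fold change of 0.18 ± 0.08 (adjusted p = 0.0907, edgeR), or 0.07 with the trend removed. PCDHAC1, PCDHAC2 and PCDHGC5 were lower, under 3 CPM in each library, and had log2 fold changes of 0.26, -0.04 and 0.45 that did not pass. The sign of PCDHAC2 turned without NG library 1 and without SMG library 2. As a sum, the C-type members stood at 26.1 ± 1.86 CPM in NG and 30.3 ± 1.29 CPM in SMG (SD, n = 3 each).

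The level of a gene set how small a change could be called. Of the 28 tested members with a mean of 5 CPM or more, 12 rose, with a median SE of 0.0875 on the log2 scale. Of the 21 with a mean under 5 CPM, 1 rose, PCDHGA3, with a median SE of 0.228. The share of all genes that rose at these levels was not counted, so neither count has a background beside it. The median log2 fold change was 0.19 in both classes. A difference of the size seen in the abundant genes was therefore not detectable in most of the low ones at this depth. The log2 fold changes of all tested members ran from -0.16 for PCDHA13 to 0.54 for PCDHGA7, both low genes that did not pass.

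**Figure D5:**
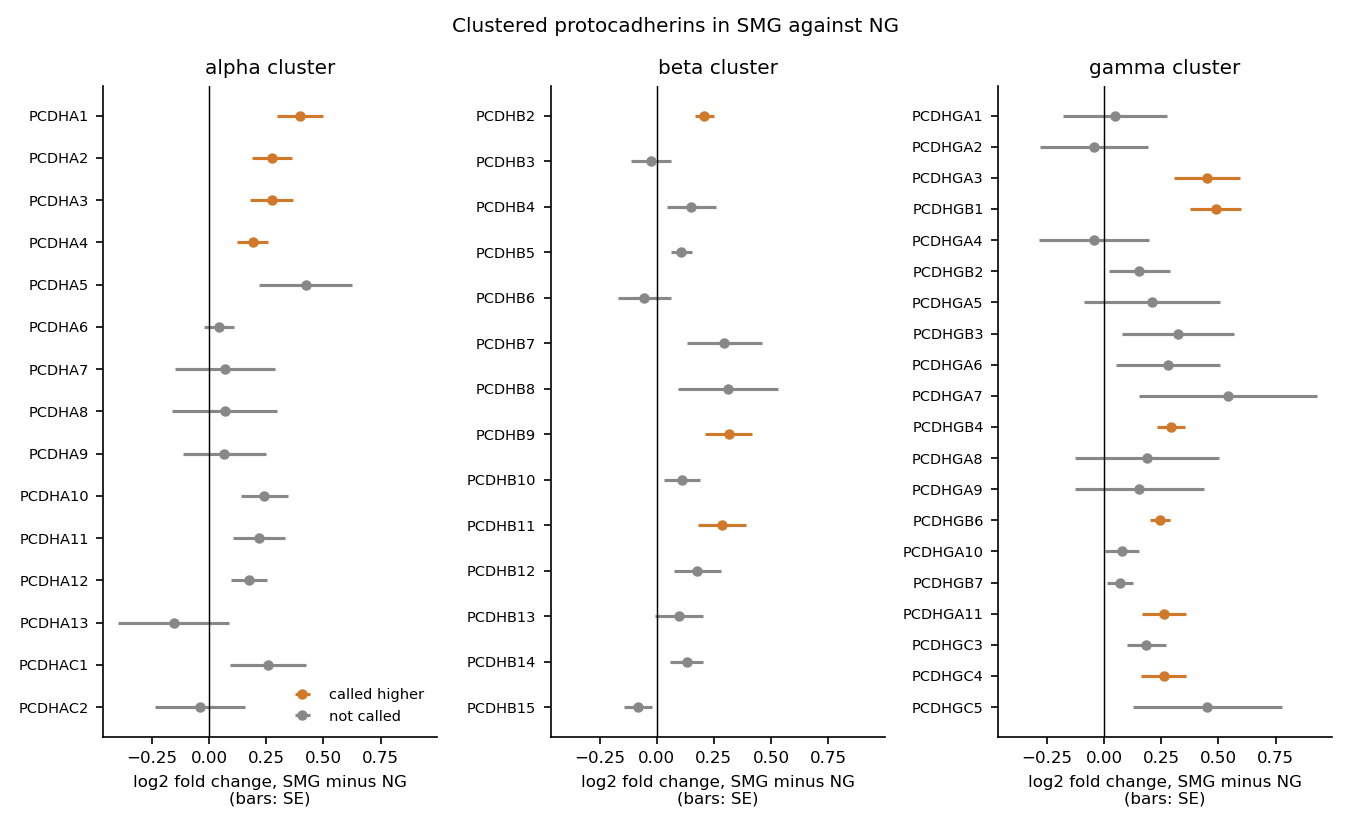
Log2 fold change of SMG over NG (x axis, with SE) for the 49 tested members by cluster, with called members marked apart from the rest. Most points lie to the right of 0, from -0.16 to 0.54, and the longest error bars belong to low genes.

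Genes that act with the clustered protocadherins are given by list, beside the 17.3% of all tested genes that rose and the 18.5% that fell. Of 17 genes of CTCF, cohesin and loop regulation, 3 rose (17.6%) and 5 fell (29.4%), with a median log2 fold change of -0.03, and a share of rises near the background is no result about the list. STAG2, a cohesin subunit, fell from 159 ± 5.2 to 136 ± 2.20 CPM, and RAD21, the subunit that closes the cohesin ring, from 364 ± 10.6 to 325 ± 4.63 CPM (SD, n = 3 each). ESCO1, which acetylates cohesin, fell from 48.3 ± 2.02 to 39.9 ± 0.608 CPM, while MAU2, which helps load cohesin, rose from 79.3 ± 3.94 to 94.9 ± 2.95 CPM (SD, n = 3 each). CTCF itself, named after its value was seen, was at 101 ± 4.05 CPM in NG and 107 ± 4.57 CPM in SMG (SD, n = 3 each) and did not pass (adjusted p = 0.0945, edgeR). Of 15 tested genes of silencing, DNA methylation and H3K9 methylation, 7 rose (46.7%) and 3 fell (20%). TET1, which oxidises methylated cytosine, fell by 0.47 on the log2 scale, from 164 ± 7.80 to 118 ± 1.82 CPM (SD, n = 3 each). TET3, of the same enzyme family, rose by 0.23, DNMT3A, which methylates DNA anew, by 0.25, and EHMT1, an H3K9 methyltransferase, by 0.25 on the log2 scale. With the trend on transcript length and GC content removed, TET1 was at -0.44, and the other 7 genes named here as changed kept direction and call but were smaller by over 1.5 times: STAG2 -0.14, RAD21 -0.07, ESCO1 -0.18, MAU2 0.13, TET3 0.13, DNMT3A 0.14 and EHMT1 0.14 on the log2 scale.

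Of 27 genes whose proteins bind, cut or signal from clustered protocadherins or sit beside them at the membrane, 7 rose (25.9%) and 10 fell (37%), with a median log2 fold change of -0.07. RET, a receptor kinase reported to pair with protocadherins, rose from 85.4 ± 2.44 to 117 ± 1.90 CPM, and WASF1, of the WAVE complex that branches actin, from 129 ± 5.98 to 151 ± 1.53 CPM (SD, n = 3 each). The neuroligins, synaptic adhesion proteins, went opposite ways: NLGN2 rose by 0.35, a call lost with the length and GC trend removed (0.16), and NLGN1 had a log2 fold change of -0.41. Of 11 non-clustered protocadherins, which are single genes outside the 3 clusters, 3 rose (27.3%) and 2 fell (18.2%). PCDH1 and PCDH12 of this list lie on chromosome 5 past the gamma cluster. PCDH19 rose from 69.3 ± 4.32 to 106 ± 1.55 CPM (SD, n = 3 each), a log2 fold change of 0.61 that is larger than that of any member that rose. PCDH1 and PCDH7 rose by 0.36 and 0.34 on the log2 scale, and PCDH18 and PCDH9 had log2 fold changes of -0.38 and -0.25. Of 18 tested genes that flank or lie between the clusters on chromosome 5, 4 rose (22.2%) and 5 fell (27.8%). TAF7, a transcription factor subunit gene between the beta and gamma clusters, fell from 157 ± 4.66 to 132 ± 1.91 CPM (SD, n = 3 each), and ZMAT2, NDUFA2 and CYSTM1 had log2 fold changes of -0.20, -0.31 and -0.37. With the length and GC trend removed, ZMAT2 lost its call (-0.07), TAF7 stood at -0.13 and PCDH1 at 0.20.

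The labelled cell type was present by its markers, which are given beside the 17.3% of all tested genes that rose and the 18.5% that fell. Of 7 motor neuron markers, 5 rose, 0 fell and the rest did not pass. Their sum was 581 to 613 CPM in NG and 689 to 717 CPM in SMG. SLC18A3, which loads acetylcholine into vesicles, rose from 51.9 ± 5.26 to 82.4 ± 0.361 CPM and ISL1, a motor neuron transcription factor, from 103 ± 3.95 to 120 ± 3.66 CPM (SD, n = 3 each). Of 6 general neuron markers 2 rose and 2 fell, and their sums of 8400 to 9016 CPM in NG and 8552 to 8724 CPM in SMG overlapped. Of 7 neural progenitor markers 0 rose and 3 fell, with overlapping sums of 3811 to 4045 CPM in NG and 3785 to 3917 CPM in SMG. The 4 astrocyte markers summed to at most 1.23 CPM in any library, and PDGFRA and SOX10, of the oligodendrocyte lineage, were under 1 CPM in each library. The 4 markers of pluripotent cells summed to 83.2 to 89.4 CPM in NG and 74.1 to 81.1 CPM in SMG, without overlap. POU5F1 and NANOG, the core pluripotency factors, were near 0, while LIN28A, an RNA-binding protein also made in early neural cells, fell from 56.2 ± 1.61 to 50 ± 4.01 CPM (SD, n = 3 each) and DPPA4 was at 29.7 and 28.3 CPM and did not pass. Interneuron markers summed to 29.1 to 34.0 CPM in NG and 30.1 to 31.9 CPM in SMG, endothelial and mesenchymal ones to under 3 CPM. The part of cell makeup in the members' rise was not tested.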

How the data were processed

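RNA was sequenced from 6 libraries of H9-derived motor neurons, 3 per group. The deposited table holds raw counts per Ensembl gene, which the authors made from their reads; per the submitters' processing notes, HISAT2, SAMtools, featureCounts, DESeq2 and the build hg19 were named. The sources used here do not give versions, annotation, strand or the treatment of multi-mapping reads. Names and exon lengths came from GENCODE 29, which is on another build, so coordinates are given for RefSeq promoters alone.

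Counts were filtered with edgeR's filterByExpr, scaled by TMM and tested in edgeR by quasi-likelihood, with a robust fit and with Benjamini-Hochberg adjustment over 17803 genes and a threshold of 0.05. All adjusted p-values come from this fit unless another is named. Each SE was worked back from the test, as the size of the log2 fold change over the square root of its F statistic. The members and lists were chosen with earlier results of these data known. Named genes were the members that passed, the 3 highest per cluster by CPM per kilobase of unshared exon, the C-type members, and up to 4 passing genes of each context list. UHRF1, CYFIP1, PCDH20 and PECAM1 had no match in the table and are left out, and the result of 1 marker gene is not reported here. Alternatives were DESeq2, limma-voom, other scalings and filters, no robust estimation, a replicate block, removal of length and GC trends (natural splines, 4 degrees of freedom) and leaving out each library. The scripts were tested on simulated data. Versions were DESeq2 1.42.0, limma 3.58.1 and edgeR 4.0.16 under R 4.3.3.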

Additional observations from a re-analysis of the deposited data

How the results depend on the processing

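Of the 13 members that rose, 5 were called under all 16 alternatives and none changed sign. DESeq2 called 5 members (alpha 1, beta 1, gamma 3) and 1 gene beside the clusters higher. With the length and GC trend removed, 3 gamma genes were called, the beta median was 0.18 and the gamma median 0.17, 6 partner genes fell and 2 neighbours rose; the PCDHGB7 log2 fold change turned to -0.0297. Scaling by library size alone gave a gamma log2 ratio of summed CPM of 0.23, and no filter left 3 cohesin list genes called lower. Leaving out each library gave 8 to 10 members called higher and 0 to 1 lower (PCDHGA12, without NG library 3), alpha 2 to 3 and gamma 3 to 5 higher, and gamma 0 to 1 lower. The medians ran from 0.17 to 0.23 for all members, 0.16 to 0.27 for alpha, 0.14 to 0.18 for beta and 0.22 to 0.26 for gamma. Of the lists, 1 to 3 cohesin genes and 1 to 5 neighbours were then called higher. Without 1 library, the PCDHA6 log2 fold change ran from -0.0471 (without SMG replicate 3) to 0.101, and the PCDHAC2 log2 fold change from -0.181 to 0.0479, above 0 without NG replicate 1 (0.00438) and without SMG replicate 2. Same-numbered libraries did not deviate together (correlations from -0.0281 to 0.0178). Libraries handled as pairs need not share a deviation, so this check cannot tell whether the numbers mark pairs. The fit with a replicate block called 13 members higher (4 alpha, 3 beta, 6 gamma). The cause of these shifts was not tested.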
